A study of Mus musculus with 6 samples.

Results

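The subcortical maternal complex is an assembly of proteins that the growing oocyte stores beneath its cortex and hands on to the early embryo. Its mouse core consists of NLRP5 (also called MATER), OOEP (FLOPED), TLE6 and KHDC3 (FILIA), and the described set adds Padi6, Nlrp2, Nlrp4a, Nlrp4f, Nlrp9b and Nlrp14. The 10 genes were taken by name from the authors' deposited table, and all 10 were found among its 29431 genes. The transcripts of this complex are made in the growing oocyte and are mostly lost around the maternal-to-zygotic transition, whereas the proteins persist through cleavage. Loss of NLRP5, OOEP or TLE6 in the mother is known in mice to stop embryos during early cleavage. NLRP proteins otherwise belong to a family of innate immune sensors, of which a branch is expressed in oocytes.

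Mouse embryos of the 4-cell stage, labelled WT, were profiled for RNA in 3 libraries of untreated controls and in 3 libraries of embryos given LDHB inhibition with AXKO-0046. LDHB is lactate dehydrogenase B, an enzyme subunit that favours turning lactate into pyruvate, and the compound was used at a dose and for a time not given in the sources used here. Text of the series mentions 6 embryos without saying whether per group or per library, and neither strain nor maternal age is labelled. No label states that replicates are independent litters or cultures, and the p-values therefore describe the spread among these 6 libraries, which may be technical. Levels are in FPKM, fragments scaled to transcript length and library size, which allows genes to be compared with each other, and the depth is unknown.

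The libraries summed to between 457016 and 524538 FPKM and listed 20094 to 22142 genes above 0. Inhibitor replicate 2 stood apart, with a median correlation of 0.888 with the other libraries over the tested genes against 0.946 to 0.965 for the rest. Its 7 listed genes of the 2-cell stage summed to 731.8 FPKM, against 8.91 to 29.8 FPKM elsewhere. Markers of cells that surround the oocyte were at or near 0 in most libraries. Of 8 cumulus and granulosa genes 4 were listed, and their sum lay between 0 and 0.990 FPKM without inhibitor and between 0.0203 and 0.395 FPKM with it. Tnfaip6, a cumulus matrix gene, made up the sum in control replicate 3, and Foxl2, Fshr and Cyp19a1 were listed at 0 in all controls. Of 5 fibroblast genes 3 were listed, with sums of at most 0.157 FPKM without inhibitor and 0.267 FPKM with it, Pdgfra having the highest mean. Of 5 leukocyte genes 3 were listed, with sums of 10.25 to 22.7 FPKM without inhibitor and 19.9 to 27.8 FPKM with it that came mostly from the lysosomal gene Cd68 (limma adjusted p = 0.628), with Cd52 lower (adjusted p = 0.903), while the leukocyte integrin gene Itgam reached at most 0.0605 FPKM. The 2-cell list had 7 genes tested and 0 called, Usp17lc (adjusted p = 0.664) and Zscan4d (adjusted p = 0.692) having the smallest p-values in limma. Of 7 blastocyst genes 6 were listed, 2 were tested, Krt18 (adjusted p = 0.739) and Nanog (adjusted p = 0.887), and 0 were called. The part of these markers in the results that follow was not tested.

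The genes of the complex made up a small share of all FPKM at this stage, with Khdc3 and Padi6 well above the rest. Their means lay above those of 44.4% (Nlrp2, the lowest) to 89.9% (Khdc3, the highest) of all genes listed. Together the 10 genes summed to 35.3, 25.8 and 52.6 FPKM without inhibitor and to 39.6, 35.4 and 27.996 FPKM with it, or 0.00505% to 0.01% of all FPKM. Khdc3 and Padi6 supplied 60.2% to 80.5% of that sum in every library. Ordered by the mean over the 6 libraries, Khdc3 (14.2 FPKM) and Padi6 (11.4 FPKM) were followed by Nlrp14 (4.67 FPKM), Nlrp4f (2.1998 FPKM), Tle6 (1.08 FPKM), Ooep (0.833 FPKM), Nlrp5 (0.832 FPKM), Nlrp4a (0.532 FPKM), Nlrp9b (0.267 FPKM) and Nlrp2 (0.165 FPKM). Among neighbours in this order, the ranges of Padi6 and Nlrp14 did not overlap, and those of the other 8 neighbouring pairs did. Nlrp14 lay above Nlrp4f in 6 of 6 libraries, as did Nlrp4f above Tle6, while Khdc3 lay above Padi6 in 4 and Ooep above Nlrp5 in 3. In these bulk libraries fewer cells of a kind and less RNA per cell cannot be told apart.

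In the GRCm38 annotation all 10 are protein-coding genes, and 5 of them lie on chromosome 7. These are Nlrp2 (ENSMUSG00000035177) from 5298547 to 5351035 on the minus strand, Nlrp9b (ENSMUSG00000060508) from 19991465 to 20073306 on the plus strand, Nlrp5 (ENSMUSG00000015721) from 23385889 to 23441922 on the plus strand, Nlrp4a (ENSMUSG00000040601) from 26435113 to 26476142 on the plus strand and Nlrp14 (ENSMUSG00000016626) from 107166990 to 107198102 on the plus strand. Khdc3 and Ooep share chromosome 9, Khdc3 (ENSMUSG00000092622) from 73101836 to 73104438 on the plus strand and Ooep (ENSMUSG00000032346) from 78376109 to 78378725 on the minus strand. Padi6 lies on chromosome 4, and Tle6 (ENSMUSG00000034758) from 81590904 to 81601073 on the minus strand lies on chromosome 10. Nlrp4f is apart from its paralog Nlrp4a, with Nlrp4f (ENSMUSG00000032999) from 65177111 to 65205977 on the minus strand of chromosome 13.

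**Figure D1:**
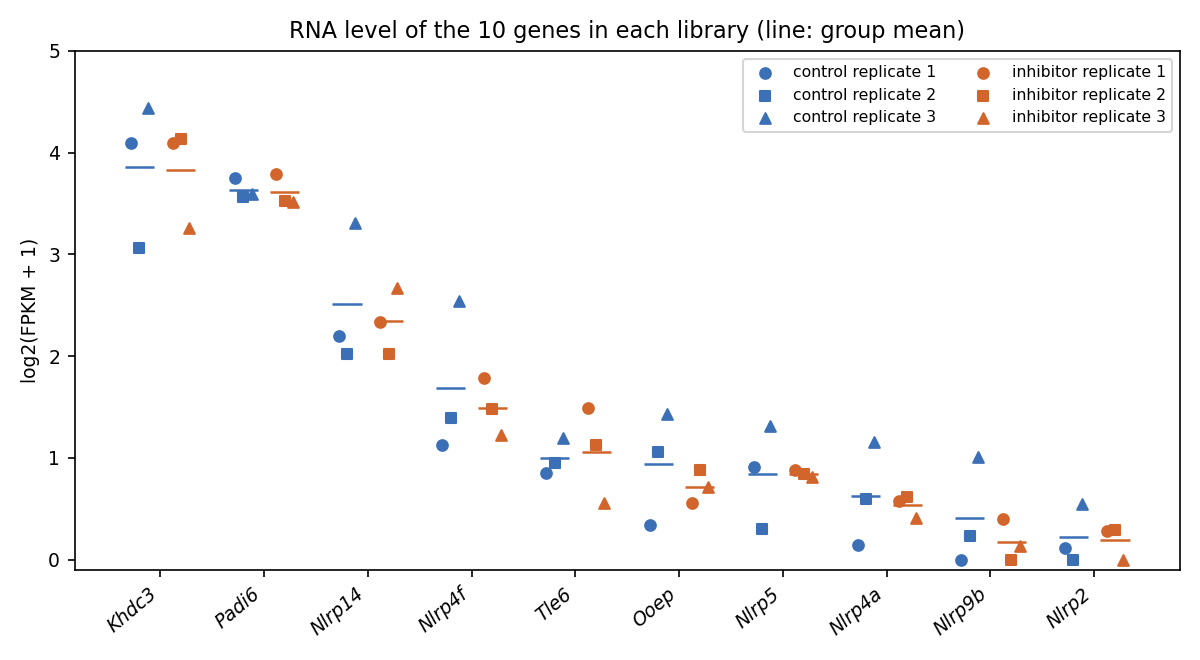
RNA level of the 10 genes, as log2(FPKM + 1), in the 3 control (blue) and 3 inhibitor (orange) libraries, with the replicate number as the symbol and a line at each group mean. Khdc3 and Padi6 are the highest and Nlrp2 the lowest, the groups overlap for every gene, and the control triangle (replicate 3) is the top point for 8 of the 10 genes.

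Within the core, Khdc3 stood apart from its partners. Khdc3, a KH domain protein linked to genome stability in mouse embryos, gave 16.02, 7.35 and 20.6 FPKM without inhibitor and 16.1, 16.5 and 8.57 FPKM with it. Both groups held a low and a high library, and they overlapped over most of their range. Nlrp5, the founding NLR protein of the complex, gave 0.884, 0.229 and 1.49 FPKM without inhibitor and 0.841, 0.792 and 0.756 FPKM with it. The controls spanned the whole range of the 6 libraries and the inhibitor libraries lay close together inside it. Ooep, a small KH domain protein needed for assembly of the complex, gave 0.263, 1.08 and 1.69 FPKM without inhibitor and 0.476, 0.842 and 0.640 FPKM with it, again inside the range of the controls. Tle6, of the Groucho family of corepressors, gave 0.799, 0.935 and 1.29 FPKM without inhibitor and 1.81, 1.18 and 0.473 FPKM with it. Here the inhibitor libraries were the wider group, holding both the highest and the lowest value. Khdc3 made up 76.6% to 89.2% of the core's summed FPKM and was 6.78 to 18.1 times the highest of its 3 core partners in the same library.

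Of the core genes Khdc3 and Tle6 passed the filter of a mean of at least 1 FPKM, and neither was called. Khdc3 had means of 14.7 FPKM ± 6.75 without inhibitor and 13.7 FPKM ± 4.48 with it (SD, n = 3 per group). Its difference, inhibitor minus control, was -0.034 on the log2(FPKM + 1) scale (95% interval -0.93 to 0.86, limma adjusted p = 0.987). For Tle6 the difference was 0.058 (interval -0.65 to 0.77, limma adjusted p = 0.970), from 1.01 FPKM ± 0.255 to 1.15 FPKM ± 0.668 (SD, n = 3 per group). With 3 libraries a group, the data are compatible with differences throughout these intervals, and no detection limit was computed for these genes. Nlrp5 and Ooep lay under the filter, and a limma fit of all 29431 genes without a filter gave differences of 0.0023 (interval -0.70 to 0.71, adjusted p = 1) and -0.22 (interval -0.99 to 0.54, adjusted p = 0.817).

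Khdc3 and Padi6 were the most abundant of the set and Nlrp5 and Ooep were core genes under 1 FPKM, so the sequences around their transcript starts are shown (RefSeq, GRCm38.p6, 250 bases before to 50 bases after the start, read on the gene's strand). The windows are chr9:73102148-73102447 on the plus strand for Khdc3, chr4:140742594-140742893 on the minus strand for Padi6, chr7:23385639-23385938 on the plus strand for Nlrp5 and chr9:78378539-78378838 on the minus strand for Ooep. Capitals mark CACCTG or its reverse complement CAGGTG, an E-box, the class of element that FIGLA binds, and TAATTG or TAATTA on either strand, the element bound by NOBOX. FIGLA and NOBOX are transcription factors of the growing oocyte.
Khdc3: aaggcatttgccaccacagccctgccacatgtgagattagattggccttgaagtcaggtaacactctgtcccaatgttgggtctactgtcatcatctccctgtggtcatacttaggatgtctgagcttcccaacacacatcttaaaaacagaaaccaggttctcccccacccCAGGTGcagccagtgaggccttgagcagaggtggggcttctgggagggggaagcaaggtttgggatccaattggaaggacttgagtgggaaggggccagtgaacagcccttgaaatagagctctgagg
Padi6: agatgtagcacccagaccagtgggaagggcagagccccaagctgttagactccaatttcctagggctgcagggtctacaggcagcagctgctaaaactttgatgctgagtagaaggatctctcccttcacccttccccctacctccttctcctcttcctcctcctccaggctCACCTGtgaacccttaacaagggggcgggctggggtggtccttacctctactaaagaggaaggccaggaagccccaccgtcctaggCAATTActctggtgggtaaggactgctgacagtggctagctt
Nlrp5: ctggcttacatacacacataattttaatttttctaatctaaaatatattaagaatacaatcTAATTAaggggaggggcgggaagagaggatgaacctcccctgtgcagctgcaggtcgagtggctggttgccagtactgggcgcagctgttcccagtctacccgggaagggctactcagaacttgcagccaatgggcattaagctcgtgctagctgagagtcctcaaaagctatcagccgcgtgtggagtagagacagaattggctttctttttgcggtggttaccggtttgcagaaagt
Ooep: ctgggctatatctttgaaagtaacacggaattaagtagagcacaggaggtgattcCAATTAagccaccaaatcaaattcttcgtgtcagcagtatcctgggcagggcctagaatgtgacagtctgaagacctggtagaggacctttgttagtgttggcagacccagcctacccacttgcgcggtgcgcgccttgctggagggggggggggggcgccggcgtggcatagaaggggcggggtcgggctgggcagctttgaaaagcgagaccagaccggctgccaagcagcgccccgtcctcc
Khdc3 and Padi6 each held CACCTG or CAGGTG, with its first base 78 bases before the RefSeq start in both. Nlrp5 and Ooep did not hold this sequence. Other E-box sequences were not searched for, and the printed windows of Nlrp5 and Ooep hold CAGCTG and CACTTG. The Khdc3 window lies wholly inside the annotated gene span (73101836 to 73104438), so its CAGGTG is not upstream of the annotated gene. The CACCTG of Padi6 lies outside its annotated span, which ends at 140742643. CACCTG was found, on either strand, in 20.2% of all 32851 promoter windows of the same length. Padi6, Nlrp5 and Ooep held a TAATTG or TAATTA element, found in 12.4% of all windows, and Khdc3 did not. The 9 described genes with a window had 12 windows. Of these 12, 3 held CACCTG (Khdc3, Padi6 and Nlrp9b) and 4 held TAATTG or TAATTA (Padi6, Nlrp5, Ooep and Nlrp9b), and the motifs did not overlap. The Nlrp9b window with the motifs begins at 20007773, inside the annotated gene span (19991465 to 20073306). A match of letters is a description of the sequence. Nobox had means of 0.451 FPKM ± 0.722 without inhibitor and 0.233 FPKM ± 0.185 with it (SD, n = 3 per group), and Figla was listed above 0 in control replicate 2 alone, at 0.688 FPKM.

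Padi6 was the steadiest of the 10 genes. Padi6, a peptidylarginine deiminase relative needed in mice for the cytoplasmic lattices of the oocyte, gave 12.4, 10.8 and 11.1 FPKM without inhibitor and 12.8, 10.5 and 10.4 FPKM with it. All 6 values lay between 10.4 and 12.8 FPKM and the groups overlapped. Its coefficient of variation over the 6 libraries was 9.11%, and 1.21% of the 2653 genes with a mean of 5 to 20 FPKM varied less, a comparison chosen after the values were seen. The corresponding value for Khdc3 was 36.2%, and the median of these genes was 27.5%. The difference for Padi6 was -0.026 (interval -0.49 to 0.44, limma adjusted p = 0.980), from 11.4 FPKM ± 0.865 to 11.3 FPKM ± 1.38 (SD, n = 3 per group). Padi6 (ENSMUSG00000040935, chromosome 4, 140727355 to 140742643, minus strand) overlaps no other annotated gene, and no other transcript matched it at 95% identity over 100 bases.

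Padi6 stood alone in its family, since Padi1 to Padi4 were each listed below 0.5 FPKM in every library. Padi4, which citrullinates histones, had means of 0.239 FPKM ± 0.166 without inhibitor and 0.241 FPKM ± 0.168 with it, and it had the highest mean of the 4 paralogs. Padi2 was at or below 0.0104 FPKM in controls and at 0.126, 0.0661 and 0.0888 FPKM under the inhibitor, groups that did not overlap but lay far under the filter (adjusted p = 0.748 in the limma fit without a filter). No Padi paralog passed the filter.

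Among the Nlrp genes, Nlrp14 and Nlrp4f were the 2 that passed the filter, and both were highest in control replicate 3. Nlrp14, required for female fertility in mice and reported to bind UHRF1, gave 3.57, 3.07 and 8.93 FPKM without inhibitor and 4.05, 3.05 and 5.37 FPKM with it. Control replicate 3 was the high library and the other 5 lay between 3.05 and 5.37 FPKM. Nlrp4f, an NLR protein reported with the complex in mouse oocytes, gave 1.18, 1.63 and 4.83 FPKM without inhibitor and 2.44, 1.79 and 1.33 FPKM with it. Control replicate 3 again lay above all others and control replicate 1 below them. Nlrp14 had means of 5.19 FPKM ± 3.25 without inhibitor and 4.16 FPKM ± 1.17 with it (SD, n = 3 per group), a difference of -0.17 (interval -1.01 to 0.67, limma adjusted p = 0.910). Nlrp4f averaged 2.55 FPKM ± 1.99 and 1.85 FPKM ± 0.559 (SD, n = 3 per group), a difference of -0.19 (interval -1.06 to 0.68, limma adjusted p = 0.899). Without control replicate 3 both differences had the opposite sign, 0.23 for Nlrp14 and 0.24 for Nlrp4f.

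The other 3 Nlrp genes were the lowest of the set, though in the middle of the table, with means above those of 59.7% (Nlrp4a), 50.8% (Nlrp9b) and 44.4% (Nlrp2) of all genes listed. Nlrp4a, an oocyte paralog of Nlrp4f, gave 0.102, 0.507 and 1.23 FPKM without inhibitor and 0.493, 0.529 and 0.332 FPKM with it. Nlrp9b, known in the mouse intestine as a sensor of viral RNA, gave 0, 0.176 and 1.01 FPKM without inhibitor and 0.320, 0 and 0.0965 FPKM with it. Nlrp2, a maternal-effect gene in mice, gave 0.0850, 0 and 0.464 FPKM without inhibitor and 0.216, 0.224 and 0 FPKM with it. For each of the 3 the inhibitor libraries lay within the span of the controls, whose top value was replicate 3. Without a filter, the differences were -0.095 for Nlrp4a (adjusted p = 0.924), -0.24 for Nlrp9b (adjusted p = 0.791) and -0.031 for Nlrp2 (adjusted p = 0.965) in limma. Without control replicate 3 all 3 had the opposite sign, at 0.17 for Nlrp4a, 0.061 for Nlrp9b and 0.13 for Nlrp2, and with a pseudocount of 0.1 the difference of Nlrp9b was -0.63.

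Nlrp4a and Nlrp4f belong to a family with copied sequence, which matters for how reads are shared between them, so the windows around their starts are shown. The windows are chr7:26435364-26435663 on the plus strand for Nlrp4a and chr13:65205667-65205966 on the minus strand for Nlrp4f, from the same RefSeq set, and capitals mark the longest run that both hold.
Nlrp4a: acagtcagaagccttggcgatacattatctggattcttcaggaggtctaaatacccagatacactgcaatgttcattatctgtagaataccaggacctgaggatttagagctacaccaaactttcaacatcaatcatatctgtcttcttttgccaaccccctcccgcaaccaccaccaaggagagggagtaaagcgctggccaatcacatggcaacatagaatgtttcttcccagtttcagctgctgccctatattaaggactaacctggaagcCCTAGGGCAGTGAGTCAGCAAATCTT
Nlrp4f: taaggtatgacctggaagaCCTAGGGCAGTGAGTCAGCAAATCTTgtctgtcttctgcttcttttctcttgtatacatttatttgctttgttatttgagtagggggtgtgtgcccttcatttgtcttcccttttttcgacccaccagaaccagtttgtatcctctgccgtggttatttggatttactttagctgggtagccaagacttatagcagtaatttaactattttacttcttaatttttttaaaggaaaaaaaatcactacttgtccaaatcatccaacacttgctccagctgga
The shared run was 26 bases long within the windows, beginning at base 25 of the RefSeq Nlrp4a transcript and 231 bases before the RefSeq start of Nlrp4f. It ends at the edge of the Nlrp4a window, so its full length may be greater. Both windows, and so the run, lie inside the annotated gene spans, 26435113 to 26476142 for Nlrp4a and 65177111 to 65205977 for Nlrp4f. For Nlrp4f the run is therefore upstream of the RefSeq start but not of the annotated gene. Along the transcripts, Nlrp4a and Nlrp4f aligned at 82.1% identity over 3161 bases, Nlrp4a and Nlrp4c at 84.7% over 3447 bases, and Nlrp4f and Nlrp4g at 92.6% over 2059 bases. Of the 10 genes, 5 had a BLAST alignment with another gene of at least 100 bases and at least 95% identity over its whole length. Alignments of lower identity, such as that of Nlrp4f with Nlrp4g, were not counted, though parts of them may be more alike. Nlrp4a shared 315 bases with Nlrp4c and Nlrp5 688 bases with the pseudogene Nlrp5-ps, which was listed at 0.0376 to 0.351 FPKM. Ooep shared 121 bases with Ube2e1, which was far higher at 17.2 to 27.02 FPKM. At lower identity Ooep also aligned with very many other genes over similarly short stretches, such as Pogz at 82.4% over 204 bases. Khdc3 and Nlrp2 shared stretches with Gm20509 and Gm45013, genes not listed in the authors' deposited table. The levels of these 5 genes are uncertain, and that of Nlrp4f may be as well. The handling of reads common to copies is a step not given in the sources used here. Exons of Khdc3 overlap those of the protein-coding Gm20509 on the same strand. Exons of Nlrp2 overlap the pseudogene Gm18757 on the opposite strand, listed at 0 to 0.0199 FPKM, exons of Nlrp9b overlap the pseudogene Gm18877 on the same strand, and the labels give no strand for the libraries.

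**Figure D2:**
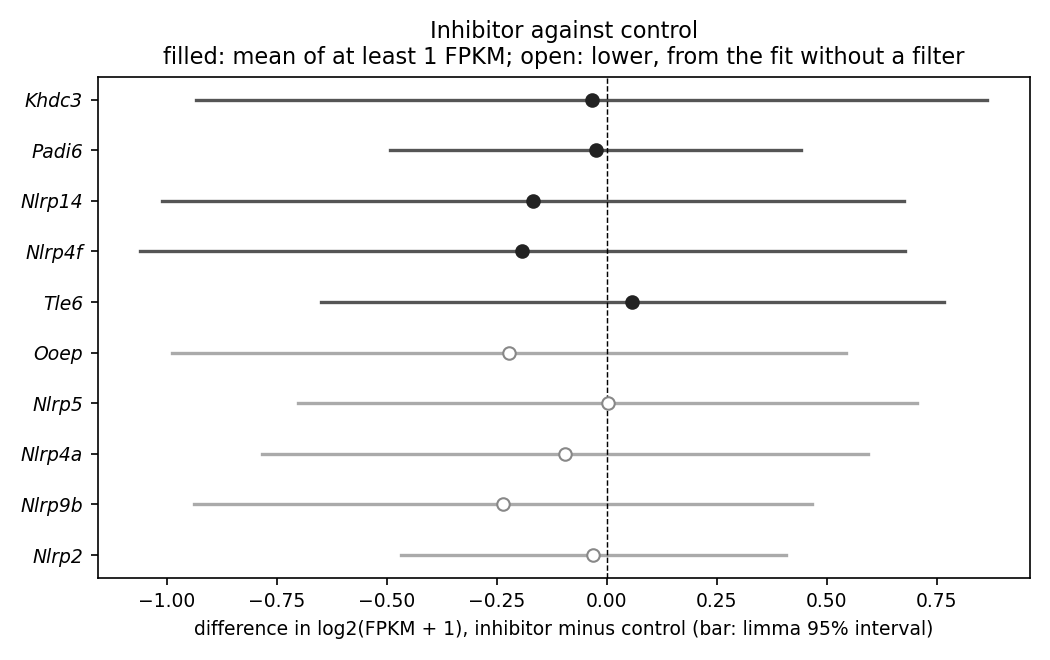
Difference between the groups in log2(FPKM + 1), inhibitor minus control, with limma's 95% interval, for each of the 10 genes. Filled points passed the filter of a mean of 1 FPKM and open points come from the fit without a filter, and every interval spans 0, the narrowest filtered interval being that of Padi6 (-0.49 to 0.44).

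Counted together, 0 of the 5 genes that passed the filter were called at a limma adjusted p under 0.05, and 0 of 5 had an unadjusted p under 0.05. Over all 9691 genes tested 0.0% were called, and 8.51% had an unadjusted p under 0.05, 457 higher (4.72%) and 368 lower (3.8%). Under median-ratio scaling that split was 299 higher and 512 lower, and under quantile normalization 264 and 547. Without a filter, 0 of the 10 genes were called or had an unadjusted p under 0.05, where 0.0% and 4.42% of the 29431 genes did. The groups overlapped for all 10 genes. Groups that did not overlap made up 9.98% of all genes listed, 5.69% with the inhibitor above and 4.29% below, and 15.4% of the genes tested, 9.13% above and 6.26% below. Of the 10 genes, the authors' deposited table marked 0 as changed, beside 0.792% of all genes, and in it the lowest q-value among the 10 was 0.979, for Ooep. The authors' deposited table gives the largest ratio departure to Nlrp9b, at 0.351, a gene listed at 0 in 2 libraries.

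The balance of signs depended on which libraries were kept and on their weights. Of the 10 differences 8 were below 0, with a median of -0.064, beside 46.0% below 0 and a median of 0.0063 over all genes listed. Under median-ratio scaling 9 were below 0 and under quantile normalization 10. The median over all genes tested also moved, from 0.0625 to -0.0032 under median-ratio scaling and to -0.027 under quantile normalization. Without control replicate 3, 9 of the 10 were above 0 and the median was 0.16. Without inhibitor replicate 3, 5 were above and 5 below, with a median of -0.0078, and without inhibitor replicate 2, the library that stood apart, 7 were below 0 with a median of -0.11. In the remaining left-out settings most stayed below 0. These were 10 without inhibitor replicate 1 (median -0.151), 9 without control replicate 2 (median -0.217) and 7 without control replicate 1 (median -0.205). With library weights and all 6 libraries kept, 5 were above and 5 below, with a median of 0.0031.

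**Figure D3:**
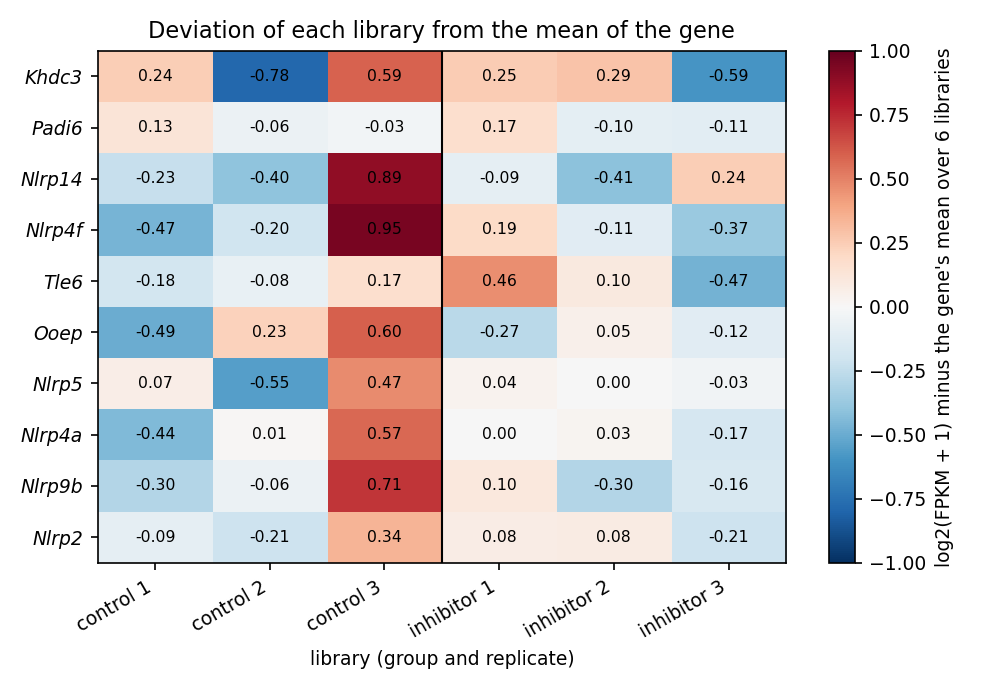
Deviation of log2(FPKM + 1) in each library from the gene's own mean over the 6 libraries, for the 10 genes (rows, in order of level) and libraries (columns, controls left of the line). Control replicate 3 is above the mean for 9 of the 10 genes, up to 0.95 for Nlrp4f, and Padi6 is near 0 throughout.

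Control replicate 3, singled out after the values were seen, held the highest value of the 6 libraries for 8 of the 10 genes, all but Tle6 and Padi6, which were highest in inhibitor replicate 1. Over all genes listed that library was the highest for 16.1%, and over all genes tested for 12.6%. Its value exceeded the next highest library 1.25-fold for Khdc3, 1.66-fold for Nlrp14, 1.98-fold for Nlrp4f and 2.32-fold for Nlrp4a. That library also had the largest total FPKM of the 6 (524538) and the most genes above 0 (22142). The part of either in this pattern was not tested.

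Other maternal transcripts showed the same high library. Of 20 listed maternal genes outside the complex, 11 were highest in control replicate 3. H1f8, the oocyte linker histone, gave 1.18, 3.73 and 12.4 FPKM without inhibitor and 4.88, 3.64 and 0.267 FPKM with it. Obox5, an oocyte homeobox gene, gave 10.7, 13.2 and 35.8 FPKM without inhibitor and 12.8, 17.97 and 11.98 FPKM with it. Btg4, an adaptor of maternal messenger RNA decay, gave 8.50, 16.3 and 42.3 FPKM without inhibitor and 25.5, 9.49 and 10.4 FPKM with it. In H1f8, Obox5 and Btg4, named after their values were seen, control replicate 3 was 2.55, 1.99 and 1.65 times the next library. Of the 14 maternal genes tested 0 were called, and an unadjusted p under 0.05 was reached by 3 with lower levels (Oosp1, Npm2 and Sebox) and by 0 with higher, beside 3.8% lower and 4.72% higher over all genes tested. The median difference of the 14 was -0.40, beside 0.062 over all genes tested. Oosp1, an oocyte-secreted protein (limma adjusted p = 0.378, difference -1.42), and Npm2, a histone chaperone of the egg (adjusted p = 0.426, difference -0.67), had the smallest p-values of that list, and their groups did not overlap, with the inhibitor below, as in 6.26% of genes tested.

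**Figure D4:**
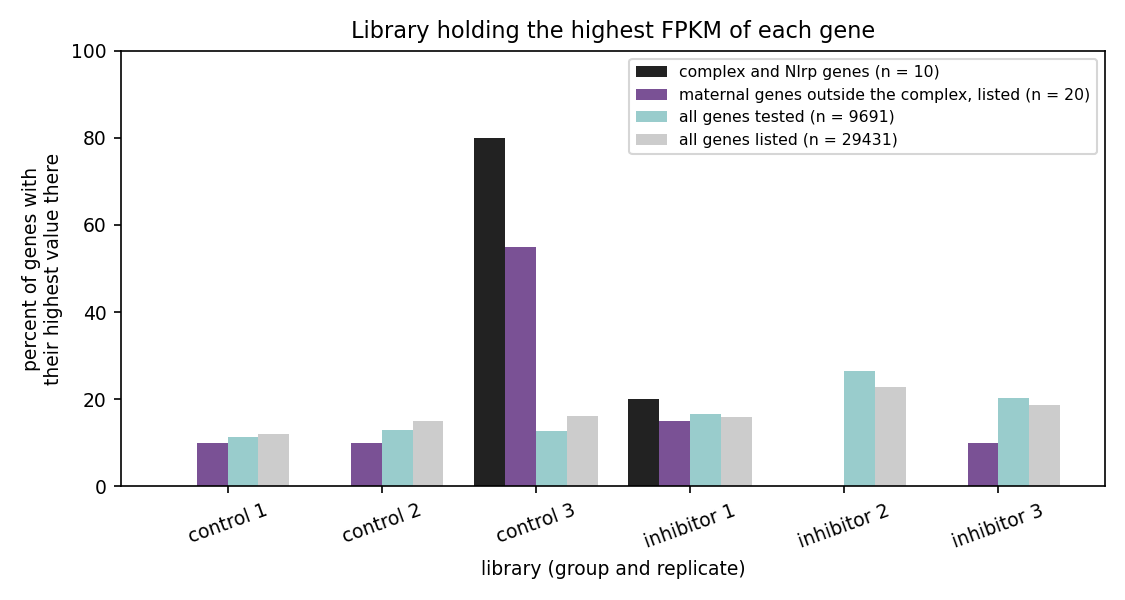
Share of genes, in percent, whose highest FPKM lay in each of the 6 libraries, for the 10 complex and Nlrp genes, 20 maternal genes outside the complex, all tested genes and all listed genes. Control replicate 3 holds the highest value for 8 of the 10 genes and 55.0% of the maternal genes, against 12.6% of tested and 16.1% of listed genes.

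Among genes of at least 5 FPKM, the pattern over the 6 libraries closest to that of Nlrp5 was that of Pgam2, a phosphoglycerate mutase, followed by Cyth2 and Nudt4. Likeness was the root mean square difference of centred log2(FPKM + 1), which was 0.114 for Pgam2, 0.122 for Cyth2 and 0.139 for Nudt4 among 3888 genes compared over 6 libraries. The limit of 5 FPKM on the mean lies above the level of Nlrp5 itself, predicted gene models and genes of small spread were left out, and the measure depends on the size of deviations as well as their pattern. Pgam2 gave 9.75, 6.43 and 10.8 FPKM without inhibitor and 9.81, 9.05 and 9.20 FPKM with it, so that, as for Nlrp5, controls 2 and 3 were its lowest and highest libraries.

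Among the other oocyte-type Nlrp genes 6 of 7 were listed, 2 were tested and 0 were called in either direction. Nlrp9c was the highest, at 4.82, 5.86 and 7.66 FPKM in controls and at 6.02, 4.12 and 5.52 FPKM under the inhibitor (difference -0.19, limma adjusted p = 0.840). It lay above its paralog Nlrp9b in every library. Nlrp4c gave 1.33, 0.959 and 2.03 FPKM without inhibitor and 1.25, 0.214 and 0.524 FPKM with it, with a difference of -0.58 (limma adjusted p = 0.646). Nlrp4e, named after its values were seen, was the member of this list whose groups did not overlap, at 0.506, 0.607 and 0.903 FPKM in controls and at 0.0856, 0.270 and 0.274 FPKM under the inhibitor. It lay under the filter (adjusted p = 0.748 in limma without a filter), and in the authors' deposited table its ratio was 0.312 with a q-value of 0.277.

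Inflammasome genes were mostly low, while the immune-type gene Nlrp12 had a mean above those of 80.9% of all genes listed. Of 6 immune-type genes 2 were listed, and Nlrp12, a regulator of inflammatory signalling, gave 5.17, 3.28 and 4.90 FPKM without inhibitor and 3.55, 3.19 and 4.49 FPKM with it (limma adjusted p = 0.833). Nlrp3, the best known inflammasome sensor, reached at most 0.0777 FPKM. Of 8 inflammasome genes 6 were listed and Aim2, a sensor of cytosolic DNA, alone was tested, with means of 3.27 FPKM ± 1.63 without inhibitor and 2.16 FPKM ± 0.780 with it (SD, n = 3 per group; limma adjusted p = 0.734). Both lists had 0 calls in either direction.

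Reported partners of the complex were all listed, and 3 of the 5 were tested with 0 called. Ube2d3, a ubiquitin-conjugating enzyme, gave 29.8, 28.4 and 33.95 FPKM without inhibitor and 41.8, 41.4 and 42.4 FPKM with it. Its groups did not overlap, as in 9.13% of tested genes with the inhibitor above, and its difference of 0.44 (SE 0.17) had an unadjusted p of 0.0323 and a limma adjusted p of 0.544. Cfl1, the actin-severing protein cofilin, averaged 73.7 FPKM ± 6.82 and 89.02 FPKM ± 17.04 (SD, n = 3 per group; limma adjusted p = 0.721). Zbed3, reported as part of the complex in mice, gave 2.52, 5.53 and 10.2 FPKM without inhibitor and 9.31, 9.87 and 3.92 FPKM with it, a spread between replicates larger than the difference between groups (limma adjusted p = 0.832). Uhrf1, the DNA methylation cofactor that NLRP14 is reported to bind, averaged 0.452 FPKM ± 0.272 and 0.735 FPKM ± 0.0233, and Dnmt1, the maintenance methyltransferase, 0.765 FPKM ± 0.582 and 0.712 FPKM ± 0.410, both under the filter.

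**Figure D5:**
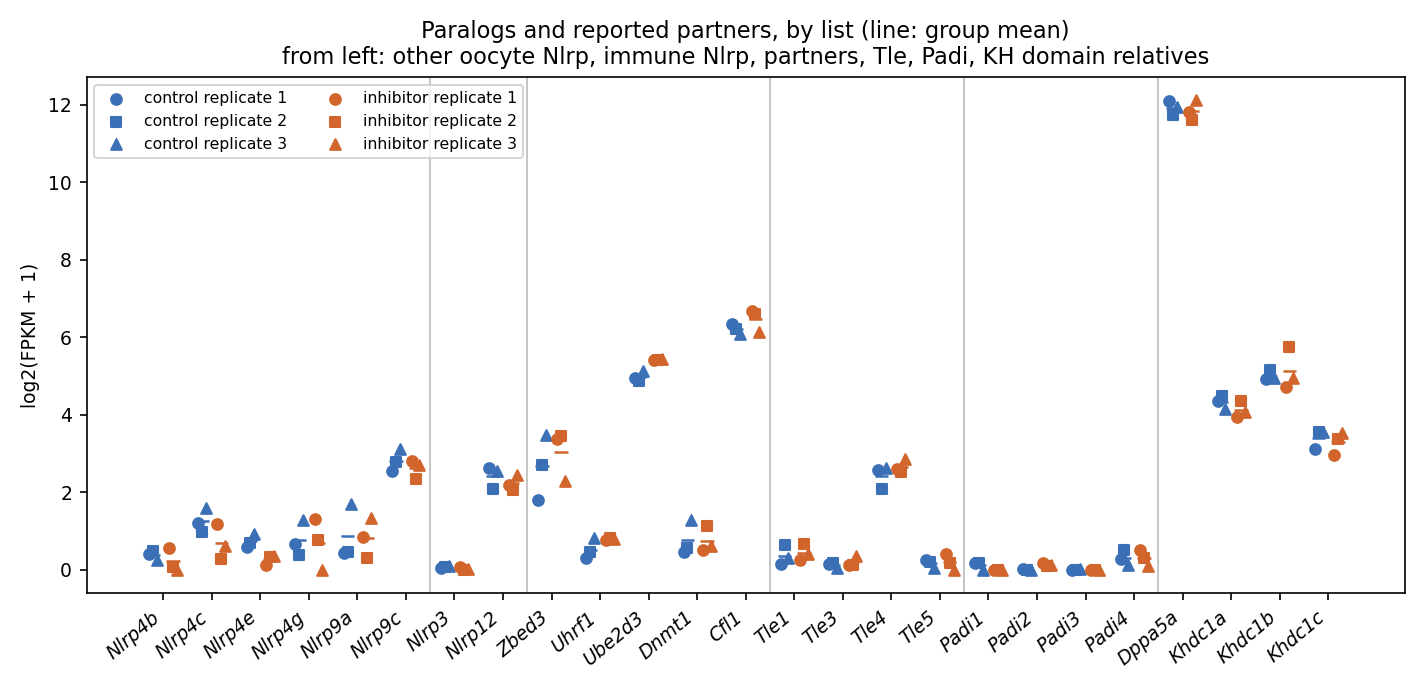
RNA level, as log2(FPKM + 1), of paralogs and reported partners in the 3 control (blue) and 3 inhibitor (orange) libraries, with a line at each group mean and grey lines between lists. Dppa5a is far above all others, Ube2d3 shows separate groups, and the Padi paralogs lie near 0.

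Relatives of the core proteins differed widely in level. Dppa5a, a KH domain gene of pluripotent cells, had means of 3921 FPKM ± 498 without inhibitor and 3715 FPKM ± 671 with it (SD, n = 3 per group; limma adjusted p = 0.904), far above Khdc3 and Ooep in every library. Khdc1a, an oocyte and early embryo gene of the same family, averaged 19.2 FPKM ± 2.18 and 16.6 FPKM ± 2.70 (SD, n = 3 per group), and had the smallest p of the 4 KH domain relatives (limma adjusted p = 0.784). All 4 were tested, 3 had differences below 0, and 0 were called. Among the Tle paralogs, Tle4, a Groucho corepressor, was the one tested, averaging 4.46 FPKM ± 1.05 and 5.38 FPKM ± 0.821 (SD, n = 3 per group; limma adjusted p = 0.792), and it lay above Tle6 in every library.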

How the data were processed

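For each gene the authors' table holds the FPKM of every library, with their own fold ratio of group means, its log2 and a p-value and q-value per gene, per the file headers. The submitters' processing notes name HISAT2 2.2.1, StringTie 2.1.6, cutadapt 1.9, edgeR and DESeq2 with GRCm38, each in a role not given in the sources used here. Among genes below 0.5 FPKM in both of a pair of libraries, at most 1.24% of ratios fell in any window of 0.02 on the log2 scale, so whole reads could not be recovered from steps and no counting interval is given.

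Titles gave each library's group and number. A trended, robust empirical Bayes model (limma 3.58.1, R 4.3.3) was applied to log2(FPKM + 1) of the 9691 genes whose mean reached 1 FPKM, with Benjamini-Hochberg adjustment over all of them at 0.05. This scale understates changes of low genes. The 5 genes under the filter were taken from a fit without it. Simulated data with 200 changed genes were used to test it. The genes described and the lists were chosen with earlier results of these data known. Named were the 10 genes, in each list up to 4 called genes or else the 2 with the smallest p, and the 3 genes closest in profile to Nlrp5. Where a list had no tested gene, the one with the highest mean was named. Other genes, such as Nobox, Figla, Itgam, Padi2, Nlrp4e, H1f8, Obox5, Btg4, Uhrf1, Dnmt1, Sebox, Zbed3 and Nlrp3, were named after their values were seen. Coordinates came from GENCODE M21 (GRCm38; 29348 of 29431 identifiers matched), copies from BLAST 2.17.0, and promoter windows, for 9 of the 10 genes, from RefSeq. Plots used matplotlib 3.10.9. Alternatives were 16 settings of pseudocount, filter, scaling, weights, block, fit and left-out libraries.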

Additional observations from a re-analysis of the deposited data

How the results depend on the processing

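All 10 genes were tested in limma in the setting without a filter alone, Khdc3 and Padi6 at a mean of at least 5 FPKM, and the 5 genes past the filter in the other settings. In none of the 16 alternatives was a gene so tested called or at an unadjusted p under 0.05, and the lowest adjusted p was 0.668, for Tle6. The median difference of the 10 genes was 0.0031 with library weights and ran from -0.22 to 0.16 with a library left out. Over all genes, calls numbered 0 in every setting except without inhibitor replicate 1 (11 higher and 1 lower) and without inhibitor replicate 2 (1 higher, 0 lower), and with a library left out they ran from 0 to 11 higher and from 0 to 1 lower. At an unadjusted p under 0.05, the 457 higher genes became 678 without a filter and 259 at a mean of at least 5 FPKM. The 368 lower genes became 622 and 206 in these settings, the filters changing how many genes were tested. Under median-ratio scaling the counts were 299 higher and 512 lower, and under quantile normalization 264 higher and 547 lower. With a library left out these counts ran from 293 to 748 higher and from 236 to 444 lower, both lowest without control replicate 2, and highest without inhibitor replicate 3 for higher genes and without inhibitor replicate 2 for lower genes. Signs turned for Tle6 under quantile normalization (-0.0072), without control replicate 1 (-0.018) and without inhibitor replicate 1 (-0.16). They turned for Khdc3 with library weights (0.20) and without control replicate 1 (0.079), control replicate 3 (0.25) or inhibitor replicate 3 (0.25). They turned for Padi6 with library weights (0.030) and without control replicate 1 (0.031), inhibitor replicate 2 (0.018) or inhibitor replicate 3 (0.022). They turned for Nlrp4f (0.24) and Nlrp14 (0.23) without control replicate 3. With a library left out, differences ran from -0.16 to 0.31 for Tle6, from -0.43 to 0.25 for Khdc3, from -0.12 to 0.031 for Padi6, from -0.47 to 0.24 for Nlrp4f and from -0.41 to 0.23 for Nlrp14. Among the 5 genes under the filter, values with no test, they ran from -0.27 to 0.24 for Nlrp5, from -0.52 to 0.021 for Ooep, from -0.34 to 0.17 for Nlrp4a, from -0.44 to 0.061 for Nlrp9b and from -0.14 to 0.13 for Nlrp2, and the highest of each came without control replicate 3. The cause was not tested. Deviations from the group means correlated at 0.136, 0.202 and 0.0368 for same-numbered libraries, and at -0.194 to 0.0546 for libraries of different numbers. Deviations from a mean of 3 libraries depend on each other, so these values cannot decide whether the replicate numbers pair the libraries. With the number as a replicate block 485 higher and 392 lower genes had an unadjusted p under 0.05, and 0 of the 5 genes tested were called. Depth is unknown, so the number of fragments behind levels below 1 FPKM is not known.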
